A study of Mus musculus with 9 samples.

Results

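The genes that put peptides on the cell surface for T cells were followed in mouse livers from a pair-fed group (PF), an alcohol-fed group (AF) and a further alcohol-fed group that also received MNA. The 10 genes were H2-K1, H2-D1, B2m, Tap1 and Tap2 of the MHC class I pathway and H2-Aa, H2-Ab1, H2-Eb1, Cd74 and Ciita of the class II pathway, and each was taken as the entry of the gene table that carries its name. Of the 10, 9 had an entry of their own among the 26345 named entries with a known transcript, and 8 passed the minimum level for testing. Cd74 had no entry of that name. Its transcripts lay in an entry named after Mir5107, a microRNA gene inside Cd74, and that entry is described beside the members without being counted as one. Ciita lay under the minimum of 0.5 FPKM as a mean over the libraries of each comparison.

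Each group had 3 libraries of whole liver after 5 weeks of feeding, labelled as 8 weeks of age. The PF mice received the isocaloric liquid control diet and the AF mice the Lieber-DeCarli alcohol diet, and the third group received the alcohol diet with MNA at 50 mg/kg given daily into the abdominal cavity, a compound that the labels do not spell out. The methods describe male C57BL/6J mice. The PF and AF libraries carry the strain label C57BL/6, whereas the 3 MNA libraries are labelled C57BL/7, C57BL/8 and C57BL/9, and no genotype or transgene is given for any group. These 3 labels run in sequence and the methods name no such strains, so that they may be a slip in the labels rather than a difference between the mice. The labels do not say whether each replicate was a separate animal, so that the p-values measure the spread between these libraries. Levels are in FPKM, fragments scaled to transcript length and library size, so that they can be compared between genes.

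Relative depth spanned 1 to 1.42 across the 9 libraries, and no pair of libraries shared more than 0.649% of its values at or above 1 FPKM. The summed FPKM of the 13645 transcripts assembled inside introns was 9433 in AF replicate 3 and 8934 in AF with MNA replicate 1, against 2477 to 4937 in the other libraries. Hepatocyte markers, led by albumin, summed to between 15977 and 22999 FPKM in each library. For several results, the value without AF replicate 3 or without AF with MNA replicate 1 is also given.

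MHC class I molecules consist of a heavy chain (H2-K1 or H2-D1 in C57BL/6 mice) and the light chain beta-2 microglobulin (B2m), and they present peptides that the proteasome cuts in the cytosol and the TAP1-TAP2 transporter carries into the endoplasmic reticulum. Nearly all cells carry them, hepatocytes included. Class II molecules (H2-Aa with H2-Ab1, and H2-Eb1 with an alpha chain that this haplotype lacks) present peptides of endocytosed proteins, are escorted by the invariant chain CD74, and in liver are found mainly on dendritic cells, B cells and macrophages. CIITA switches the class II genes on, and interferon gamma raises both pathways, in part through IRF1.

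Promoter sequences are shown for 1 gene of each role, because Tap1, the tested member with the largest log2 ratio between AF and PF, starts back to back with Psmb9 and both were lower in AF. RefSeq windows of build GRCm38.p6, from 250 bases before a transcript start to 50 after it, were held for 6 of the 10 members. They run 5′ to 3′ on the strand of the gene, and capitals mark matches to the searched motifs on either strand. Tap1 stands for the transporter, and its window (chr17:34187306-34187605, plus strand) overlaps that of Psmb9, an immunoproteasome subunit gene read in the opposite direction, by 275 bases, with 226 bases between the starts. H2-K1 (chr17:34000298-34000597, minus strand) stands for the heavy chains, B2m (chr2:122147437-122147736, plus strand) for the light chain, and H2-Aa (chr17:34287774-34288073, minus strand) for class II.
Tap1: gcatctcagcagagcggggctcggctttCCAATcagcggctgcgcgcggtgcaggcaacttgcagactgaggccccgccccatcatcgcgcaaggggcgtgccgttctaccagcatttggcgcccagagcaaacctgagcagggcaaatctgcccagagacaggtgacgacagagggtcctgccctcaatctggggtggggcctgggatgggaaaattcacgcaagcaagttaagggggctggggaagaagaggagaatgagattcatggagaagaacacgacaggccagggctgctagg
H2-K1: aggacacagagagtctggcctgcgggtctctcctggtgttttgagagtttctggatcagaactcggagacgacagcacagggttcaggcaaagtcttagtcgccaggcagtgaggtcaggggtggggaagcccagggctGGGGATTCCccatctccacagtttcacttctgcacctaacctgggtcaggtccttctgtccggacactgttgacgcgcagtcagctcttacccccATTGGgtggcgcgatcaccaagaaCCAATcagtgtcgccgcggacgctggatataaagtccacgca
B2m: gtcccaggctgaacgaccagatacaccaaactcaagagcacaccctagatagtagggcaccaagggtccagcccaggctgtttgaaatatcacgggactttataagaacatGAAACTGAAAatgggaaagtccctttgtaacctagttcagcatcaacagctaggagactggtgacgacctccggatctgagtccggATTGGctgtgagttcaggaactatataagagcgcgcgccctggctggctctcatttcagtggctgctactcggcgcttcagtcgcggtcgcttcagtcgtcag
H2-Aa: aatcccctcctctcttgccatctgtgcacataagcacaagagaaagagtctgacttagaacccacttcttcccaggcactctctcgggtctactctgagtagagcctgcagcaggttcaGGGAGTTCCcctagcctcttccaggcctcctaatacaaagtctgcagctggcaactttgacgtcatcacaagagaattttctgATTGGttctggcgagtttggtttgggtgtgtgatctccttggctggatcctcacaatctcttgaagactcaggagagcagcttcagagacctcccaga

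The motifs searched were ATTGG, the core of the Y box, found in 37.4% of all 32851 windows, GGGNNTTCC, a kappa-B site (5.82%), the interferon-stimulated response element (3.44%), TTCNNNGAA, a gamma-activated site (8.30%), and the X box of class II genes (0.237%), on both strands. None of these patterns overlapped another in the windows shown. The Y box core was matched in each of the 6 member windows. The kappa-B match GGGGATTCC stood in the windows of both heavy chains, H2-K1 and H2-D1, and GGGAGTTCC in that of H2-Aa at position -131. B2m held the only member match to the interferon-stimulated response element, GAAACTGAAA at position -139. No member window, those of H2-Aa and H2-Eb1 included, matched the X box or the gamma-activated site. The single match of Tap1, CCAAT at position -222, is the same stretch that lies at position -8 of Psmb9. A match is a description of letters and not of binding. In GENCODE M21 (GRCm38) the MHC members lie on chromosome 17 in the order H2-K1 (chr17:33996017-34000347, minus strand), Tap1 (chr17:34187553-34197225, plus), Tap2 (chr17:34203527-34216321, plus), H2-Ab1 (chr17:34257689-34269419, plus), H2-Aa (chr17:34282744-34287823, minus), H2-Eb1 (chr17:34305867-34316674, plus) and H2-D1 (chr17:35262730-35267499, plus). B2m (chr2:122147686-122153083, plus) and Ciita (chr16:10480059-10528418, plus) lie elsewhere.

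B2m was the most abundant of the 10 genes, with a mean of 676 ± 135 FPKM in PF (SD, n = 3), and 49 of the 26345 entries had a higher mean over the 9 libraries. The heavy chains came next, H2-K1 with 159 ± 18.6 and H2-D1 with 125 ± 28.2 FPKM in PF, and their ranges overlapped. The other tested members were far lower and close together in PF: H2-Ab1 with 6.67 ± 0.556 FPKM, H2-Eb1 with 5.53 ± 1.72, Tap2 with 5.10 ± 0.489, Tap1 with 4.68 ± 0.497 and H2-Aa with 4.16 ± 0.576. Among these 5, neighbours in the order did not differ beyond their spread. Ciita had the lowest mean, 0.507 ± 0.0351 FPKM. In AF the order of the lower members was Tap2, H2-Ab1, H2-Eb1, H2-Aa and Tap1, and the Tap2 libraries (5.72 to 6.19 FPKM) lay above every library of the other 4.

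**Figure D1:**
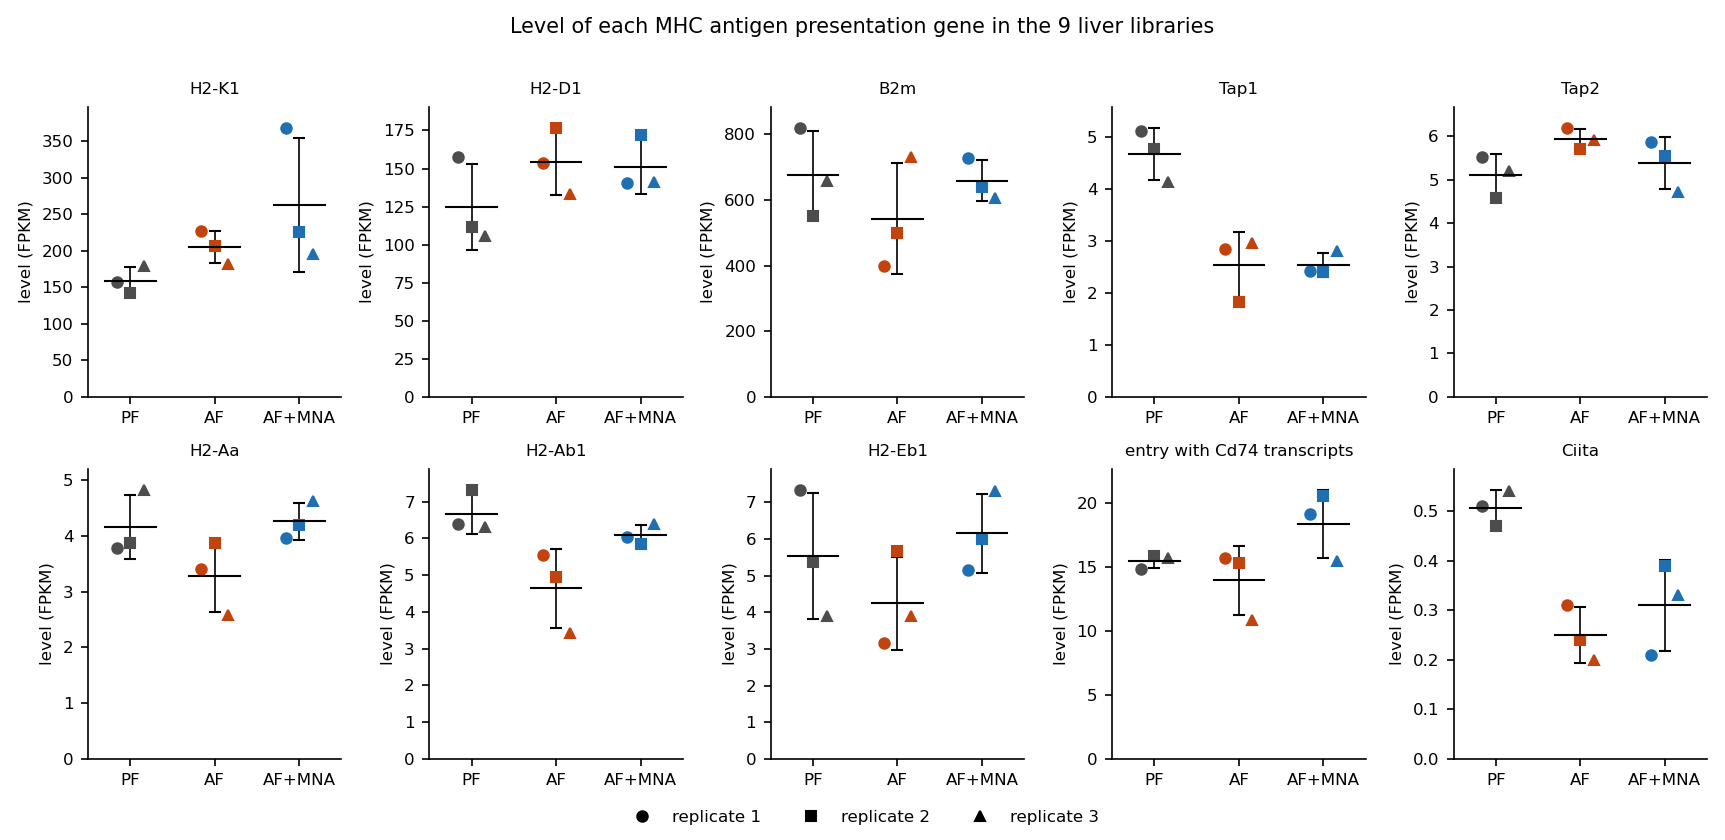
Level in FPKM (vertical axis, linear from 0) of the 9 members with an entry and of the entry that holds the Cd74 transcripts, by group; each point is 1 library, the bar is the mean and the whiskers are 1 SD. Tap1 and Ciita are lower in every AF and every AF with MNA library than in every PF library, and H2-K1 is higher in every AF and AF with MNA library than in every PF library.

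The comparison of AF with PF asked what alcohol feeding changed in the liver. No member passed an adjusted p under 0.05 in limma (0 of 8), where 0.326% of the 12268 entries tested did, and none passed the threshold of the methods, a log2 ratio beyond 1 or -1 together with an unadjusted p under 0.05, which 4.3% of entries passed. At an unadjusted p under 0.05, 2 of 8 members were lower in AF, Tap1 and H2-Ab1, against 6.58% of all entries, and 0 were higher, against 5.1%. The groups did not overlap for 4 of the 8 tested members: Tap1 and H2-Ab1 lay lower in AF (10.1% of entries lay wholly lower), and H2-K1 and Tap2 lay higher (8.18%). Ciita, which was not tested, also lay wholly lower. The median log2 ratio over all tested entries was -0.03. The differences of the members were not all in 1 direction. In bulk liver, fewer cells of a type and less RNA per cell cannot be told apart.

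Tap1 encodes a chain of the peptide pump. It was at 5.12, 4.77 and 4.14 FPKM in PF replicates 1 to 3, at 2.85, 1.82 and 2.96 in AF and at 2.42, 2.40 and 2.81 in AF with MNA. Every PF library lay above all 6 alcohol libraries. The log2 ratio of AF to PF was -0.88, and on the log2(FPKM + 1) scale the difference was -0.69 ± 0.17 (SE, 95% confidence interval -1.10 to -0.29, limma unadjusted p = 0.00536 and adjusted p = 0.211, exact permutation p = 0.1). The unadjusted p was under 0.05 in all 13 alternatives, with a log2 ratio of -1.0 without AF replicate 3.

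Tap2 encodes the partner of TAP1 in the same pump. Its levels were 5.53, 4.57 and 5.21 FPKM in PF, then 6.19, 5.72 and 5.92 FPKM under AF, and 5.87, 5.56 and 4.73 FPKM with MNA. The AF libraries lay above the PF libraries by a narrow margin, with a log2 ratio of 0.22 (limma adjusted p = 0.587, from 0.15 to 0.28 with a library left out). The ratio of Tap1 to Tap2 within a library does not depend on the scaling of the library. It was 0.926, 1.04 and 0.795 in PF, then 0.460, 0.318 and 0.5 under AF, and 0.412, 0.432 and 0.594 with MNA. Both alcohol groups lay wholly below PF (exact permutation test, two-sided, p = 0.1 for each, the smallest that 3 against 3 libraries allow). For AF this had to follow, since Tap1 lay wholly lower and Tap2 wholly higher, so that the ratio adds no separate support.

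Psmb9, which shares the promoter stretch with Tap1, was at 3.08, 2.01 and 2.48 FPKM in PF against 1.94, 0.91 and 1.39 under AF, with no overlap (log2 ratio -0.84, limma adjusted p = 0.370). Psmb8, the next immunoproteasome gene of the cluster, lies between Tap1 and Tap2 and was at 4.69, 3.55 and 3.37 FPKM in PF against 4.60, 5.53 and 4.85 under AF, with overlap (log2 ratio 0.37, limma adjusted p = 0.485). The ratio of Psmb9 to Psmb8 ranged from 0.566 to 0.736 in PF, from 0.165 to 0.422 in AF and from 0.358 to 0.405 in AF with MNA, and PF lay wholly above both (exact permutation test, p = 0.1 each). Psmb10, the third catalytic immunoproteasome subunit and on another chromosome, had a log2 ratio of 0.17 with overlap (limma adjusted p = 0.683, from 0.11 to 0.25 with a library left out). The 2 genes of the shared promoter were both lower in AF, and their partners Tap2 and Psmb8 had higher AF means, Psmb8 with overlap. A part of the shared promoter in these levels was not tested.

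**Figure D2:**
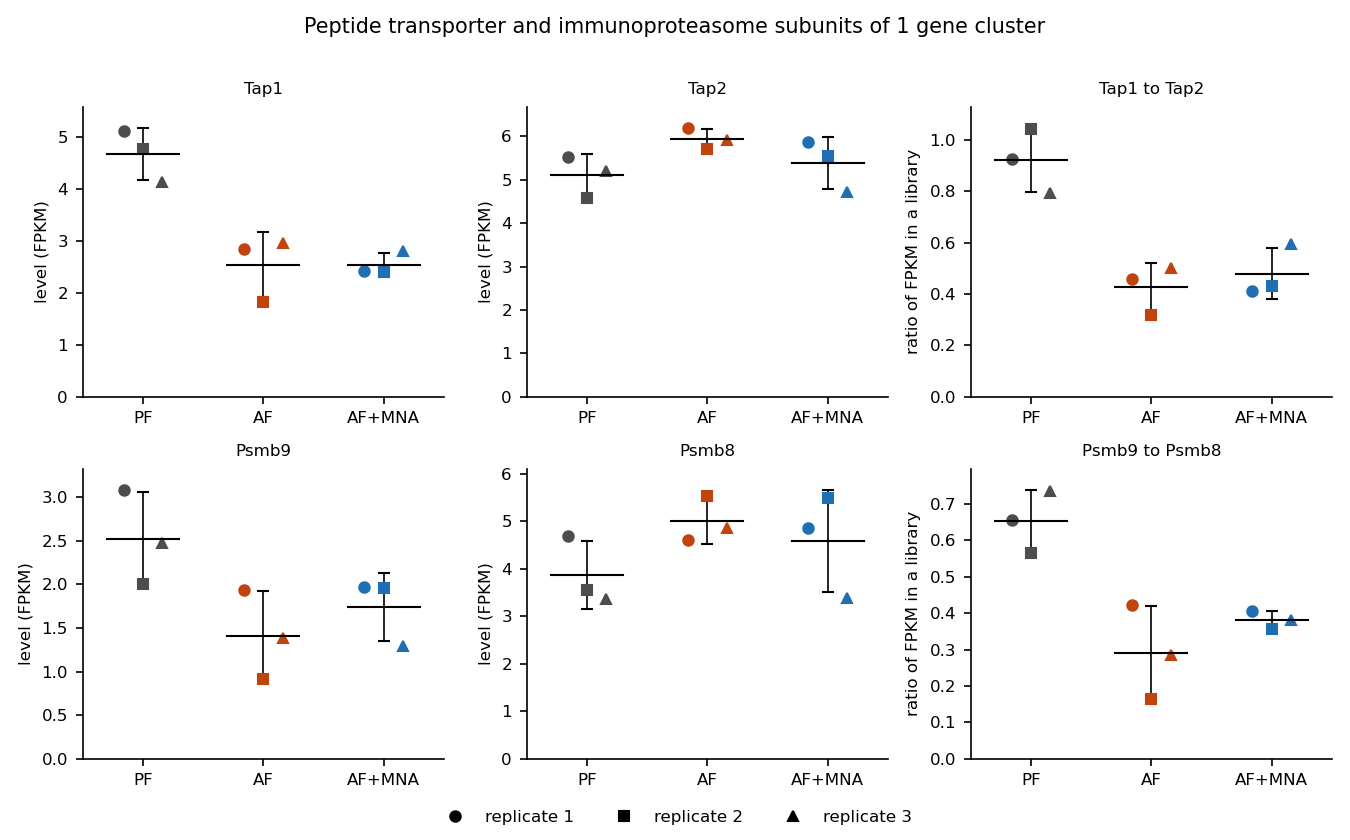
Levels in FPKM of the transporter genes Tap1 and Tap2 and of the immunoproteasome genes Psmb9 and Psmb8, and their ratios within each library (vertical axes linear from 0); each point is 1 library, the bar is the mean and the whiskers are 1 SD. Tap1, Psmb9 and both ratios lie lower in every AF library than in every PF library, with Tap1 to Tap2 from 0.795 to 1.04 in PF and from 0.318 to 0.5 in AF.

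A strand-specific lncRNA transcript, Gm20496 (chr17:34199316-34203952 of GRCm38, minus strand), runs against Psmb8 and the start of Tap2. Its level was 0.591, 0.341 and 0.375 FPKM in PF, then 0.0452, 0.0467 and 0.0797 FPKM under AF, and 0, 0.114 and 0.145 FPKM with MNA. The difference between AF and PF had an adjusted p of 0.598 in limma. A second Gm20496 transcript at the same place was at 0 in the PF libraries, at 0.317 FPKM in AF replicate 1, at 0.16 in AF with MNA replicate 2 and at 0 in the others, so that over both transcripts AF replicate 1 lay above PF replicate 2 and the groups overlapped. No circRNA among the 4486 in the circRNA table had a member as its host gene, at 17959 junction reads over the 9 libraries, and a count of 0 allows up to 3 reads.

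The class I heavy chains present the peptides that TAP delivers. H2-K1 was at 157, 141 and 178 FPKM in PF, then 226, 207 and 182 FPKM under AF, and 368, 226 and 196 FPKM with MNA. All AF libraries lay above all PF libraries, the closest pair being 178 and 182 FPKM. The log2 ratio of AF to PF was 0.37 (limma adjusted p = 0.449), and without AF replicate 3 it was 0.45, the only one of the 6 omissions with an unadjusted p under 0.05, while over all of them it ran from 0.29 to 0.46. H2-D1 was at 157, 112 and 106 FPKM in PF, then 154, 177 and 133 FPKM under AF, and 141, 172 and 141 FPKM with MNA, and the groups overlapped (log2 ratio 0.31, limma adjusted p = 0.602). With a library left out its ratio ran from 0.20 to 0.51, the highest being that without PF replicate 1, the only omission with an unadjusted p under 0.05. H2-K1 and H2-D1 are close relatives whose reads can be assigned to either, so that their separate levels are uncertain, and both carry 157.37 FPKM in PF replicate 1, where 8 of the 432 entries above 50 FPKM share a value with another.

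B2m, the light chain of all class I molecules, was at 819, 551 and 659 FPKM in PF, then 400, 500 and 729 FPKM under AF, and 728, 640 and 607 FPKM with MNA. AF replicates 1 and 2 lay below the PF range and AF replicate 3 within it (log2 ratio -0.32, limma adjusted p = 0.674). The log2 ratio was -0.59 without AF replicate 3, -0.14 without AF replicate 1 and -0.16 without PF replicate 1, each with an unadjusted p above 0.05. The ratio of B2m to the sum of H2-K1 and H2-D1 was 2.60, 2.17 and 2.32 in PF, then 1.05, 1.3 and 2.31 under AF, and 1.43, 1.61 and 1.80 with MNA. AF replicates 1 and 2 lay below PF in this ratio and AF replicate 3 lay within it (exact permutation test, p = 0.2), whereas all AF with MNA libraries lay below PF (exact permutation test, p = 0.1).

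Of the other class I heavy chain genes, 10 of the 17 listed were tested and 1 was lower at an unadjusted p under 0.05, with a list median log2 ratio of -0.05. That gene was H2-Q1, at 2.65, 1.57 and 2.35 FPKM in PF against 0.72, 0.79 and 0.84 under AF (log2 ratio -1.48, limma adjusted p = 0.124). Its adjusted p was under 0.05 in the fit with all 9 libraries. The H2-Q10 entry merges several H2-Q genes, and its log2 ratio was -0.39 with overlap, and from -0.61 to -0.19 with a library left out. In the list of peptide loading genes, 2 of 9 were lower and 1 higher at that p. Of all entries, 6.58% were lower and 5.1% higher at that p. The chaperone gene Hspa5 (BiP) had a log2 ratio of -1.16 (adjusted p = 0.144), the disulfide isomerase Pdia3 -0.57 (adjusted p = 0.302) and the translocon channel Sec61a1 0.67 (adjusted p = 0.233). Tapbp, which bridges TAP and the heavy chain, had a log2 ratio of 0.42 with overlap (limma adjusted p = 0.533, from 0.26 to 0.67 with a library left out). None of the 14 constitutive proteasome core genes passed an unadjusted p under 0.05, and Psmb9 was the single one of 5 in the list of immunoproteasome and PA28 genes.

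The 3 class II chains had lower means in AF than in PF, and 1 of them, H2-Ab1, passed an unadjusted p under 0.05. H2-Ab1, the beta chain of I-A, was at 6.39, 7.31 and 6.31 FPKM in PF, then 5.54, 4.94 and 3.43 FPKM under AF, and 6.04, 5.86 and 6.39 FPKM with MNA. No AF library reached the lowest PF library. The log2 ratio of AF to PF was -0.52, and on the log2(FPKM + 1) scale the difference was -0.46 ± 0.17 (SE, limma unadjusted p = 0.0345 and adjusted p = 0.388, exact permutation p = 0.1). The lowest value was that of AF replicate 3, and without it the log2 ratio was -0.35, with an unadjusted p above 0.05. The unadjusted p was under 0.05 in 8 of 13 alternatives, the exceptions being the libraries scaled to the same median and the fits without AF replicate 3 or any of the PF replicates.

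H2-Aa, the alpha chain of I-A, was at 3.78, 3.87 and 4.82 FPKM in PF, then 3.4, 3.87 and 2.58 FPKM under AF, and 3.97, 4.20 and 4.62 FPKM with MNA. The AF and PF ranges overlapped between 3.78 and 3.87 FPKM (log2 ratio -0.34, limma adjusted p = 0.572), and the ratio was -0.19 without AF replicate 3 and -0.22 without PF replicate 3. H2-Eb1, the beta chain of I-E, was at 7.33, 5.36 and 3.90 FPKM in PF, then 3.17, 5.66 and 3.89 FPKM under AF, and 5.16, 5.99 and 7.31 FPKM with MNA, with wide overlap (log2 ratio -0.38, limma adjusted p = 0.678, from -0.65 without AF replicate 2 to -0.13 without PF replicate 1). The entry with the Cd74 transcripts was at 14.8, 15.8 and 15.7 FPKM in PF, then 15.7, 15.3 and 10.8 FPKM under AF, and 19.1, 20.5 and 15.4 FPKM with MNA. Its log2 ratio of AF to PF was -0.15 (limma adjusted p = 0.766) and 0.0058 without AF replicate 3, so that its lower AF mean came from that library.

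Ciita, the master regulator of class II genes, was at 0.51, 0.47 and 0.54 FPKM in PF, then 0.31, 0.24 and 0.20 FPKM under AF, and 0.21, 0.39 and 0.33 FPKM with MNA. Both alcohol groups lay wholly below PF (exact permutation test, p = 0.1 each). In a fit of every entry with a value above 0 the log2 ratio of AF to PF was -1.02 (limma adjusted p = 0.412), and this was the only alternative with all 6 libraries in which a member passed the threshold of the methods. The levels are those of a rare transcript rounded to 2 decimals.

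Of the other class II and processing genes, 13 of 15 had an entry, and 10 of these had a lower mean in AF than in PF. The 6 that were tested had a median log2 ratio of 0.09, and 1 was higher at an unadjusted p under 0.05 (5.1% of all entries). It was Ctsl, a lysosomal protease, at 98.5, 85.6 and 91.8 FPKM in PF against 133, 172 and 134 under AF (log2 ratio 0.67, limma adjusted p = 0.206). The peptide exchange factors had log2 ratios of -0.26 (H2-DMa) and -0.33 (H2-DMb1), both with overlap, and with a library left out they ran from -0.58 to 0.033 and from -0.73 to -0.10.

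**Figure D3:**
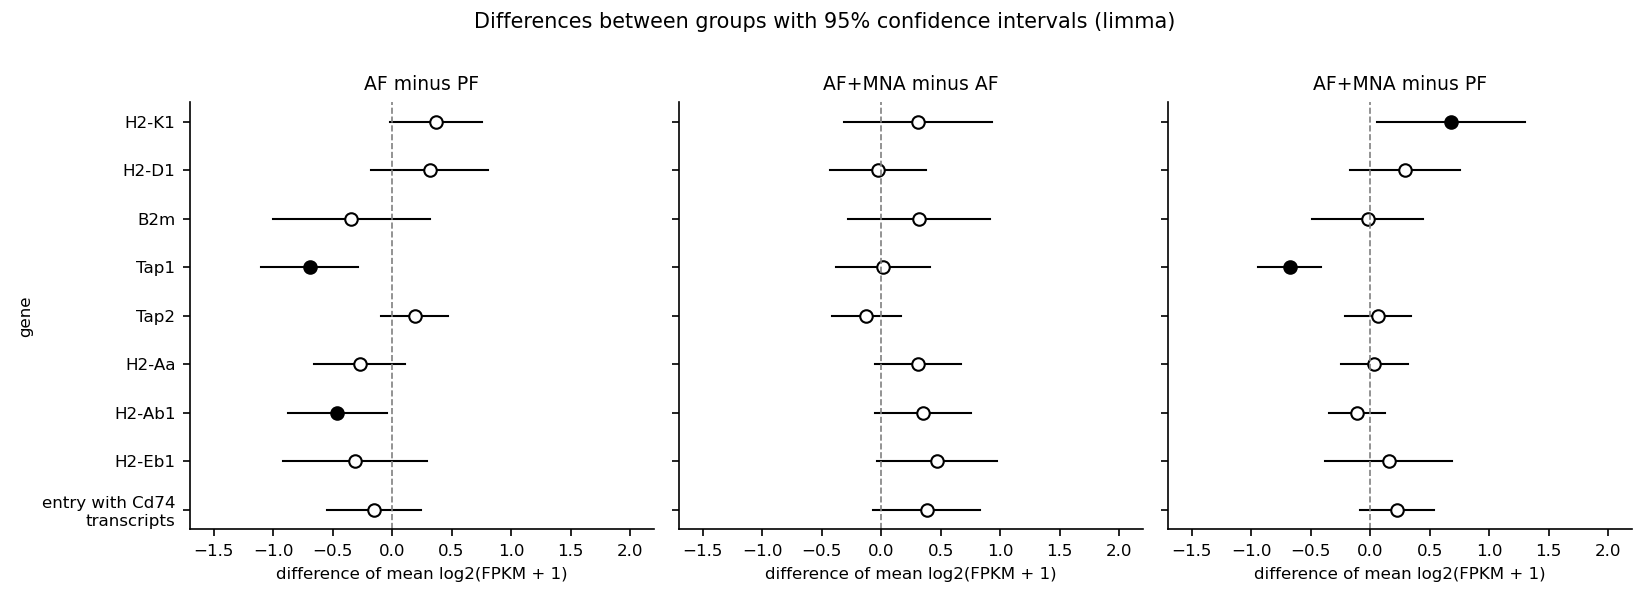
Difference between groups on the log2(FPKM + 1) scale (horizontal axis) for the 8 tested members and the entry that holds the Cd74 transcripts, with 95% confidence intervals from limma; filled points have an unadjusted p under 0.05. Only Tap1 and H2-Ab1 are filled in AF minus PF, none in AF+MNA minus AF, and Tap1 and H2-K1 in AF+MNA minus PF.

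Markers of the cells that carry class II were read in the same libraries. The 9 B cell markers summed to 3.21 to 3.64 FPKM in PF, 1.12 to 1.42 in AF and 1.22 to 1.77 in AF with MNA, and all 9 had a lower mean in AF than in PF. Ighm, the heavy chain of immunoglobulin M, led them with means of 1.62 FPKM in PF and 0.48 in AF (log2 ratio -1.76, limma adjusted p = 0.179). Only Ighm, 1 of the 9, reached the minimum level for testing, and Cd79a, Fcer2a and Ms4a1 overlapped between AF and PF. Ms4a1 and Pax5 had means under 0.1 FPKM, as did 3 of the 8 dendritic cell markers, and none of these was at 0 in all libraries. The sums of 3 other lists overlapped between AF and PF: 2.26 to 3.14 and 2.82 to 2.92 FPKM for 8 dendritic cell markers, 89.6 to 132 and 89.0 to 178 for 11 Kupffer cell and macrophage markers, and 6.69 to 8.53 and 5.41 to 9.44 for 4 leukocyte markers. Lower AF than PF means were found for 5 of the 8 dendritic, 5 of the 11 Kupffer and 3 of the 4 leukocyte markers. The dendritic sum was led by Clec9a, with means of 1.12 FPKM in PF and 1.62 in AF. The 8 sinusoidal endothelial markers summed to 34.4 to 42.3 FPKM in PF and 43.5 to 56.6 in AF, wholly higher, as were the 5 cholangiocyte markers with 3.27 to 4.31 and 4.86 to 9.12 FPKM. Spp1 led the cholangiocyte list, of which the 2 tested genes were wholly higher and Krt7, Krt19 and Epcam overlapped. The 6 neutrophil markers summed to 0.24 to 0.82 FPKM in PF and 0.78 to 2.16 in AF. The 11 T and NK cell markers (1.40 to 1.83 and 0.87 to 1.82 FPKM) and the 8 stellate cell markers (50.1 to 60.9 and 43.4 to 70.9 FPKM) overlapped. The 6 monocyte markers, led by Lyz2, summed to 8.06 to 18.2 FPKM in PF, 5.29 to 26.7 in AF and 24.01 to 28.5 with MNA. The part of these cells in the levels of the class II genes and of Ciita was not tested.

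**Figure D4:**
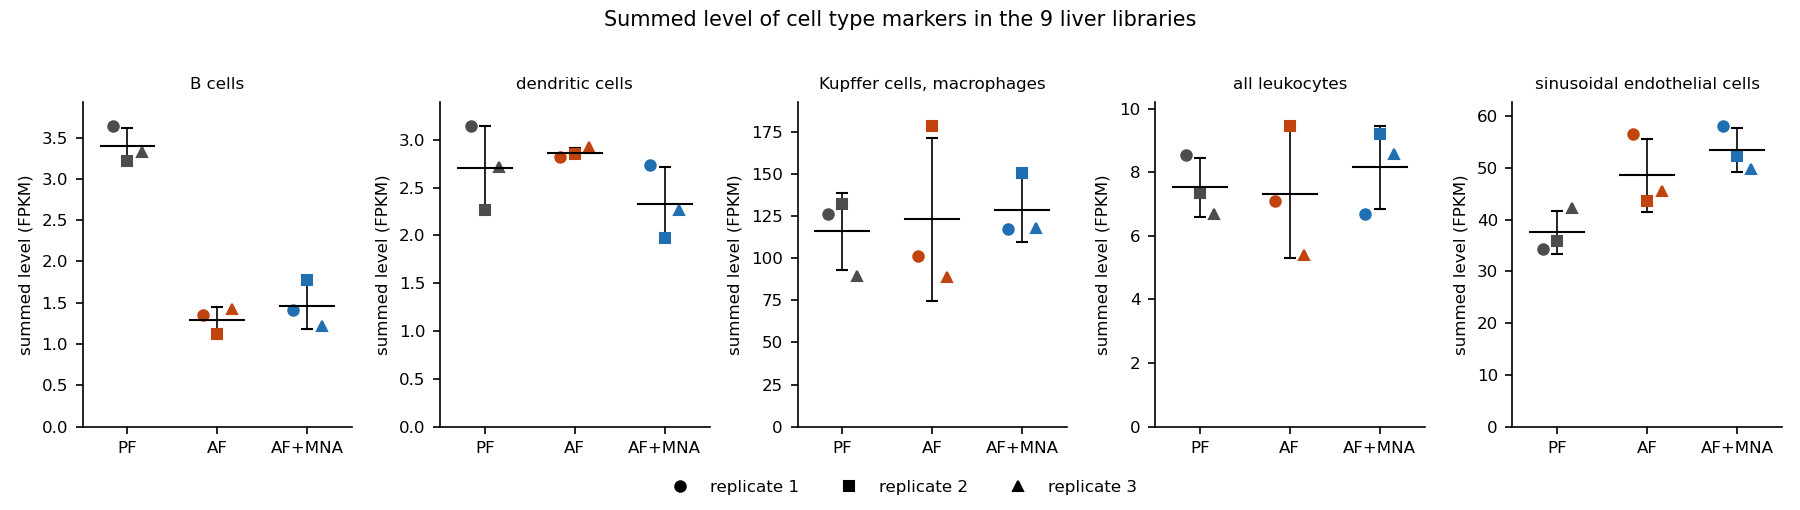
Summed FPKM of the markers of 5 cell types in each library (vertical axes linear from 0), by group; each point is 1 library, the bar is the mean and the whiskers are 1 SD. The B cell sum lies between 3.21 and 3.64 FPKM in PF and at or below 1.77 FPKM in every alcohol library, while the Kupffer cell and leukocyte sums overlap between groups and the dendritic cell sum is lower in every AF with MNA library than in every AF library.

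The genes that act upstream of both pathways were read next. The 14 tested transcription factor genes of the MHC genes had a median log2 ratio of -0.12. In AF 2 were lower at an unadjusted p under 0.05 (6.58% of all entries) and 0 higher (5.1%). Irf1, an interferon-induced activator of Tap1 and class I genes, was among these 2 and had a log2 ratio of -0.91 (limma adjusted p = 0.303). Nlrc5, the class I counterpart of Ciita, had a log2 ratio of -0.12 with overlap (from -0.38 to 0.048 with a library left out), and Rfx5, which binds the X box, had 0.48 without overlap (limma adjusted p = 0.580, from 0.30 to 0.60 with a library left out).

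The 16 tested interferon gamma response genes, Irf1 included, had a median log2 ratio of -0.50. In AF 8 were lower at an unadjusted p under 0.05 (6.58% of all entries) and 0 higher (5.1%). The GTPase genes Gbp6 (log2 ratio -1.41, limma adjusted p = 0.114) and Iigp1 (-0.71, adjusted p = 0.211) were among them. Of 15 tested type I interferon response genes, 6 were lower and 0 higher, with a median of -0.70, among them Ifit1 (-1.22, adjusted p = 0.125), Oas1a (-0.90, adjusted p = 0.243) and the receptor gene Ifnar1 (-0.40, adjusted p = 0.356). None of either list passed an adjusted p under 0.05. Without AF replicate 3, 7 and 6 genes were lower, and without PF replicate 1, the library with the highest sums of both lists, 6 and 2 were lower.

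**Figure D5:**
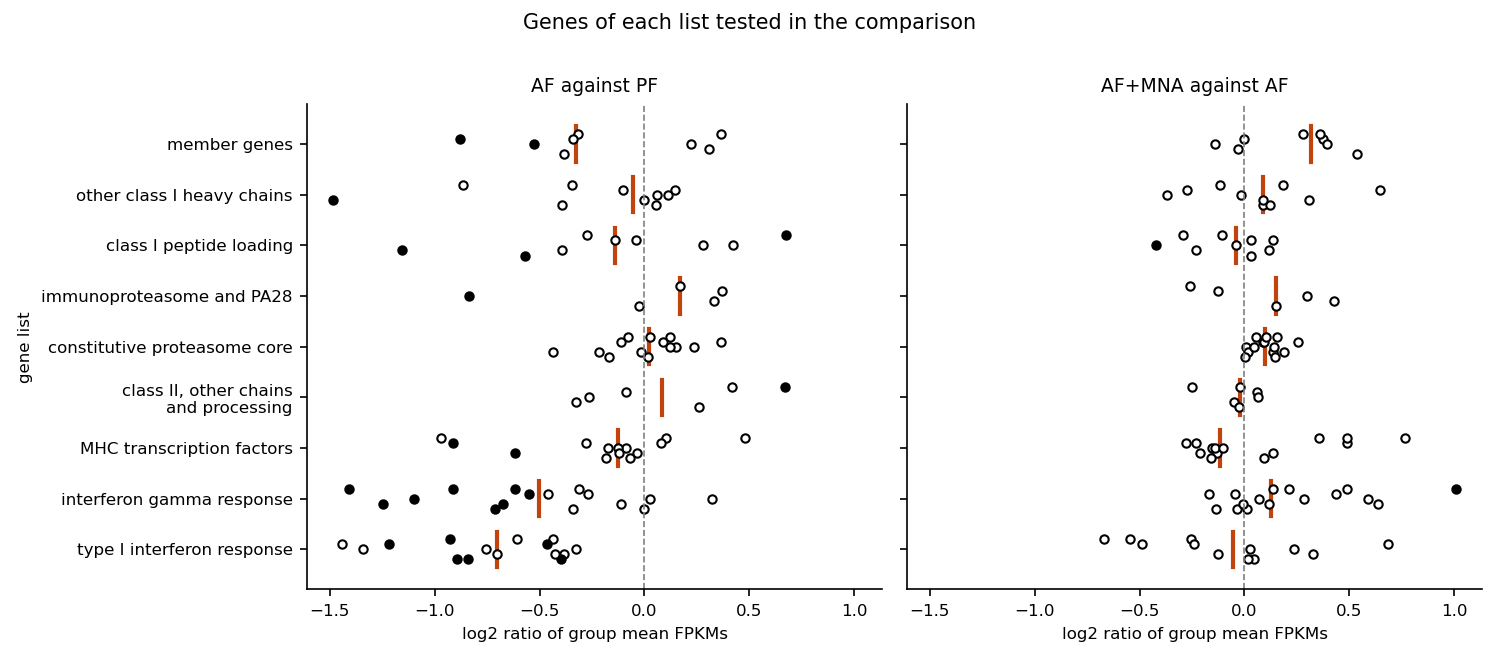
Log2 ratio of group mean FPKMs (horizontal axis) of each tested gene of the member set and of 8 lists of the same pathways; filled points have an unadjusted p under 0.05 in limma and the coloured bar is the median of the list. In AF against PF the 2 interferon lists have medians of -0.50 and -0.70, and in AF+MNA against AF their medians are 0.13 and -0.05.

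The comparison of AF with MNA against AF asked what MNA changed under alcohol, though the strain labels also differ and cannot be told apart from MNA. It shares the AF libraries with the comparison above, so that a low AF value moves both. No member passed an adjusted p under 0.05 (0 of 8, against 0.0491% of 12214 entries), the threshold of the methods (1.98% of entries) or an unadjusted p under 0.05 (2.91% of entries higher and 2.3% lower). The 2 chains of I-A, H2-Aa and H2-Ab1, lay wholly above AF, as 5.53% of entries did, and 0 members lay wholly below, as 4.58% did. The median log2 ratio of all entries was 0.01.

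The 3 class II chains and the entry with the Cd74 transcripts all had higher means with MNA. The log2 ratios were 0.38 for H2-Aa, 0.39 for H2-Ab1, 0.54 for H2-Eb1 and 0.40 for the Cd74 entry, each with a limma adjusted p of 0.940. Without AF replicate 3 these ratios were 0.23, 0.22, 0.48 and 0.24, each with an unadjusted p above 0.05. They were 0.51 for H2-Aa and 0.80 for H2-Eb1 without AF replicate 2 and 0.54 for H2-Ab1 without AF replicate 1, each with an unadjusted p under 0.05. Beside these, the AF with MNA and AF sums of B cell markers were 1.22 to 1.77 and 1.12 to 1.42 FPKM, those of dendritic cell markers 1.97 to 2.74 and 2.82 to 2.92, and those of Kupffer cell markers 117 to 150 and 89.0 to 178. The leukocyte sums were 6.69 to 9.19 and 5.41 to 9.44 FPKM and the sinusoidal endothelial sums 49.8 to 58.1 and 43.5 to 56.6, with the highest mean of the 3 groups in AF with MNA for all 4 and for 7 of 8 markers. The neutrophil sum was wholly lower with MNA, 0.28 to 0.75 against 0.78 to 2.16 FPKM. Their part in the class II levels was not tested. Tap1 had the same mean in both groups, 2.54 FPKM, and the interval of its difference ran from -0.38 to 0.41 on the log2(FPKM + 1) scale. H2-K1 had a log2 ratio of 0.36, which was 0.039 without AF with MNA replicate 1, the library with 368 FPKM. Ciita had means of 0.25 and 0.31 FPKM (exact permutation test, p = 0.4). B2m had a log2 ratio of 0.28 (limma adjusted p = 0.970) and, with a library left out, between 0.099 without AF replicate 1 and 0.55 without AF replicate 3, where alone its unadjusted p was under 0.05. Tap2 had -0.14, from -0.21 to -0.057 with a library left out, and H2-D1 had -0.03.

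Among the lists, Tapbp was lower with MNA (log2 ratio -0.42, limma adjusted p = 0.940) and the chemokine gene Cxcl10 was higher (1.01, adjusted p = 0.940), each being the only gene of its list at an unadjusted p under 0.05. Of the other lists for antigen presentation, 0 of 10 other heavy chain, 0 of 5 immunoproteasome, 0 of 6 class II processing and 0 of 14 transcription factor genes passed, and 0 of 12 type I interferon genes.

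AF with MNA was also set against PF, a comparison that combines alcohol, MNA and the differing strain labels, which cannot be told apart. At an adjusted p under 0.05, 0 of 8 members passed, against 0.432% of 12276 entries, and 0 passed the threshold of the methods, against 3.89%. Tap1 was lower (7.94% of entries were lower at an unadjusted p under 0.05, and 11.9% wholly lower) and H2-K1 was higher (6.52% and 9.54%), both without overlap, and no other tested member was without overlap. For Tap1 the difference on the log2(FPKM + 1) scale was -0.68 ± 0.11 (SE, limma unadjusted p = 0.000688 and adjusted p = 0.0907, exact permutation p = 0.1), with an unadjusted p under 0.05 in all 13 alternatives. For H2-K1 the log2 ratio was 0.73 (limma adjusted p = 0.319), and 0.41 without AF with MNA replicate 1, with an unadjusted p still under 0.05. Over the 13 alternatives that p was under 0.05 in 8. The class II chains, whose means were lowest in AF, had log2 ratios of 0.04 for H2-Aa, -0.13 for H2-Ab1 and 0.15 for H2-Eb1 against PF, each with an unadjusted p above 0.05. With a library left out, that of H2-Ab1 ran from -0.17 to -0.059. In the interferon lists, 7 of 17 gamma and 10 of 16 type I genes were lower and 0 higher, and 7 and 6 were lower without AF with MNA replicate 1. Rfx5 was higher (log2 ratio 0.97, limma adjusted p = 0.135).

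The pattern of each class over the 9 libraries was compared with that of 9977 entries of at least 1 FPKM, as a description. Entries most like the mean of the 3 class II chains on the log2(FPKM + 1) scale were Etfdh (Pearson r = 0.99), Cops6 (0.95), Zfp992 (0.92), Magt1 (0.92) and Gm44243 (0.91). The Cd74 entry had r = 0.59 with the class II mean and Tap2 had r = -0.66. For the mean of H2-K1, H2-D1 and B2m they were Sult2a7 (0.93), Ndor1 (0.91), Gm3052 (0.91), Pfkl (0.91) and Nudt4 (0.89), whereas Tap1 had r = -0.53. Libraries of a group share diet and treatment, and no test was made.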

How the data were processed

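Whole liver RNA was sequenced from ribosome-depleted, strand-specific libraries, 3 each of PF, AF and AF with MNA. The authors made the deposited FPKM values of genes and lncRNA transcripts with StringTie 1.3.4, which scales fragments to transcript length and library size, and gene values are rounded to 2 decimals. The deposited circRNA counts are junction reads without normalization, and the deposited circRNA signal is the same reads scaled by the authors to library size, so that dividing one by the other gave relative depth. The deposited read coverage (signal) of lncRNA transcripts and the deposited coding potential scores, both made by the authors, entered no comparison. The authors' processing notes also name cutadapt 1.9, HISAT2 and TopHat. No raw counts of genes were analysed here, so that precision rests on the spread between libraries. Columns of GO and KEGG annotation were not used, and 0 per-sample columns lacked a library. Of the known lncRNA transcripts, 7841 were found in GENCODE M21 (GRCm38), 7708 with the same start and end.

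For each pair of groups, entries whose mean over both reached 0.5 FPKM were transformed as log2(FPKM + 1) and tested with limma 3.58.1 (lmFit, eBayes with an intensity trend, two-sided, Benjamini-Hochberg over all entries), after the script was tested on simulated data. The log2 ratio is that of the group mean FPKMs. lncRNA transcripts had a minimum of 0.1 FPKM. Single values were compared by exact permutation tests with scipy 1.17.1. R 4.3.3, Python 3.11.15, pandas 2.3.3, numpy 2.4.6 and matplotlib 3.10.9 were used. The members and gene lists were chosen with earlier results of these data known, and so were the tests. Named genes were the members, fixed regulators and partners, and of each list up to 3 genes with the lowest p in AF against PF and up to 2 in AF with MNA against AF. The 5 entries most like each class were named by their Pearson r, with H2-Aa, H2-Ab1 and H2-Eb1 standing for class II because Cd74 had no entry. Ms4a1, Pax5, Cd79a, Fcer2a, Krt7, Krt19 and Epcam were named after their values were seen. A gene that the rule names is not reported here. Alternatives were a pseudocount of 0.1, no filter beyond a value above 0, a minimum of 2 FPKM, scaling of the libraries to 1 median, omission of the intensity trend, all 9 libraries, a replicate block, each library left out, and limma's coefficient as the fold change. Counts at an unadjusted p, ratios within a library, the Cd74 entry and the lncRNAs were added after the data were seen.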

Additional observations from a re-analysis of the deposited data

How the results depend on the processing

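The count of members at an adjusted p under 0.05 was 0 under every alternative in all 3 comparisons. The count past the threshold of the methods was 0, except in AF against PF with every entry above 0 (1 gene, Ciita) and with a library left out (0 to 1, Tap1 without AF replicate 3). Members at an unadjusted p under 0.05 numbered 1 instead of 2 in AF against PF with the libraries scaled to the same median, 1 instead of 0 in AF with MNA against AF with all 9 libraries, and, with a library left out, 1 to 2 in AF against PF (1 without PF replicate 2 or 3), 0 to 2 in AF with MNA against AF (2 without AF replicate 2, 1 without AF replicate 1 or 3) and 1 to 2 in AF with MNA against PF (1 without PF replicate 2 or 3 or AF with MNA replicate 2). Type I interferon genes lower in AF than in PF were 3 with a minimum of 2 FPKM and 2 to 7 with a library left out (2 without PF replicate 1, 3 without AF replicate 2). In AF with MNA against PF they were 4 and 6 to 9 (6 without PF replicate 1 or 2 or AF with MNA replicate 1), and interferon gamma genes were 4 to 7 (4 without PF replicate 1). Scaling to the same median moved the median of all entries by at most 0.03 on the log2 scale.

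Over all entries, the count called in AF against PF was 86 with all 9 libraries, 25 without the filter and 25 to 47 with a library left out (25 without AF replicate 1 or PF replicate 2, 26 without PF replicate 3), against 40. In AF with MNA against AF it was 0 with all 9 libraries, 2 without the filter, 2 at 2 FPKM and 6 to 13 with a library left out (13 without AF replicate 2, 12 without AF with MNA replicate 3), against 6, and in AF with MNA against PF 22 without the filter and 24 to 47 with a library left out (24 without AF with MNA replicate 3, 34 to 35 without a PF replicate), against 53. Counts past the threshold of the methods were 1183, 265 and 249 (no filter, 2 FPKM, limma's coefficient) against 527 in AF against PF, 675, 81 and 99 against 242 in AF with MNA against AF (211 to 367 with a library left out, 367 without AF replicate 3), and 1104, 228 and 229 against 477 in AF with MNA against PF.

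Replicates share only a number, with correlations of same-numbered deviations from -0.08 to 0.06. With the replicate block the called counts were 18, 1 and 0 in AF against PF, AF with MNA against AF and AF with MNA against PF, and 1 member had an unadjusted p under 0.05 in the last (Tap1), since H2-K1 was then above 0.05.

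H2-Q1 and Gbp6 had an adjusted p under 0.05 with all 9 libraries, at log2 ratios of -1.48 and -1.41. Signs changed only with a library left out. In AF against PF the ranges were -0.24 to 0.0058 for the Cd74 entry, -0.38 to 0.048 for Nlrc5 and -0.58 to 0.033 for H2-DMa. In AF with MNA against AF they were -0.13 to 0.076 for H2-D1, -0.38 to 0.048 for Nlrc5, -0.28 to 0.050 for Psmb8, -0.15 to 0.21 for H2-DMa, -0.38 to 0.35 for H2-DMb1, -0.053 to 0.31 for H2-Q10, -0.016 to 0.34 for Hspa5, -0.063 to 0.16 for Pdia3, -0.17 to 0.11 for Iigp1, -1.24 to 0.33 for Ifit1 and -0.035 to 0.11 for Ifnar1. In AF with MNA against PF they were -0.17 to 0.12 for B2m, -0.027 to 0.16 for H2-Aa, -0.044 to 0.41 for H2-Eb1, -0.25 to 0.064 for Psmb10, -0.16 to 0.25 for Tapbp and -0.52 to 0.10 for H2-DMa. The cause of these moves was not tested. Genes under 1 FPKM, Ciita among them, rest on few fragments.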
